A study of Homo sapiens with 9 samples.

Results

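The mitosis genes are 44 genes whose products drive entry into mitosis, build the spindle, guard and split the chromosomes and divide the cell. They were taken as a fixed list of names, chosen with earlier results of these data known. Shares of members set beside shares of all genes are therefore descriptions. Of several probe sets for a gene, that with the highest mean level was taken. All 44 of 44 were present among the 19775 genes with a symbol of their own on the array. The samples were LNCaP cells, an established human prostate cancer line that depends on androgen for growth, measured on Affymetrix U133 Plus 2.0 arrays with 1 array per group. Steady-state cells grew in medium with 10% fetal bovine serum. All other cells were washed free of serum and kept for 48 h in 5% charcoal-stripped serum, which holds little androgen. In the inhibitor series such deprived cells received etoposide (100 µM) or merbarone (100 µM) for 2 h before dihydrotestosterone (DHT, 100 nM, 16 h), DHT alone, or no DHT (the vehicle array). In the shRNA series the transfected vector made green fluorescent protein and an shRNA against TOP2B (sh-TOP2B) or a control shRNA (sh-control), and the cells were then deprived, given DHT (100 nM, 16 h) or vehicle, and sorted for fluorescence. All sorted cells thus carried a vector, the sh-control cells too, and only transfected cells that glowed were kept.

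Genes of mitosis are transcribed in waves. A complex called DREAM holds them low in resting cells, and in proliferating cells MYBL2 and FOXM1, with the MuvB core of the same complex, switch them on before division. The DNA element through which this core binds many of these promoters is named the cell cycle genes homology region, or CHR, and it often lies near CCAAT boxes, which NF-Y binds. In LNCaP cells androgen drives the cell cycle, and TOP2A and TOP2B encode the topoisomerases II that etoposide and merbarone inhibit, etoposide by trapping the enzyme on cut DNA and merbarone by blocking its catalysis.

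Values below are on the log2 scale of the deposited data. The array medians ran from 5.61 to 5.72, and a level below the median of its own array is called dim and used only as a bound, by raising it to that median. Of 9 luminal prostate markers measured, 7 were above the median on all 9 arrays, KLK3 on 8 and KLK2 on 5. Of 14 markers of basal, fibroblast, endothelial and blood cells, 7 were dim on all 9 arrays, among them COL1A2, DCN and PTPRC, 4 were above the median on some, and COL1A1, VWF and HBB were above it on all 9. COL1A1 also passed the test as higher in sorted sh-control than in untransfected cells, as did 41.7% of all tested genes. The median difference over the 6 fibroblast markers was -0.09 there. The 1 tested endothelial marker passed as lower, as did 26.6% of all tested genes. The part of other cells in the results was not tested. TOP2B, the target of the knockdown, was at 10.01 and 10.09 in sh-TOP2B cells with DHT and vehicle, against 10.87 and 10.54 in sh-control cells. The beta-actin probe sets for the 3' end exceeded those for the 5' end by 2.38 to 3.09 on the 4 sorted arrays and by 0.38 to 0.70 on the 5 others. Series, transfection, sorting and this sign of RNA quality cannot be told apart. The labels do not say that arrays came from separate cultures, so the p-values here cover only the spread among these arrays, which may be technical.

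The level of the mitosis genes split the arrays into bands. Steady-state cells had 44 of 44 members at or above the array median and a median member level of 10.01. The sorted arrays had between 42 and 44 members there, with median levels from 8.91 to 9.22. The untransfected deprived arrays were far lower, with 12 members at or above the array median with etoposide, 18 with merbarone, 23 with DHT alone and 18 with vehicle. Their median member levels were 4.98 with etoposide, 5.21 with merbarone, 5.94 with DHT alone and 5.29 with vehicle. The median over all genes, each by its brightest probe set, lay between 6.70 and 6.95 on every array. Only 10 members were above the median on all 9 arrays, and 19 were dim on all 4 untransfected deprived arrays. Steady state was the highest array for 33 members and the etoposide array the lowest for 27.

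**Figure D1:**
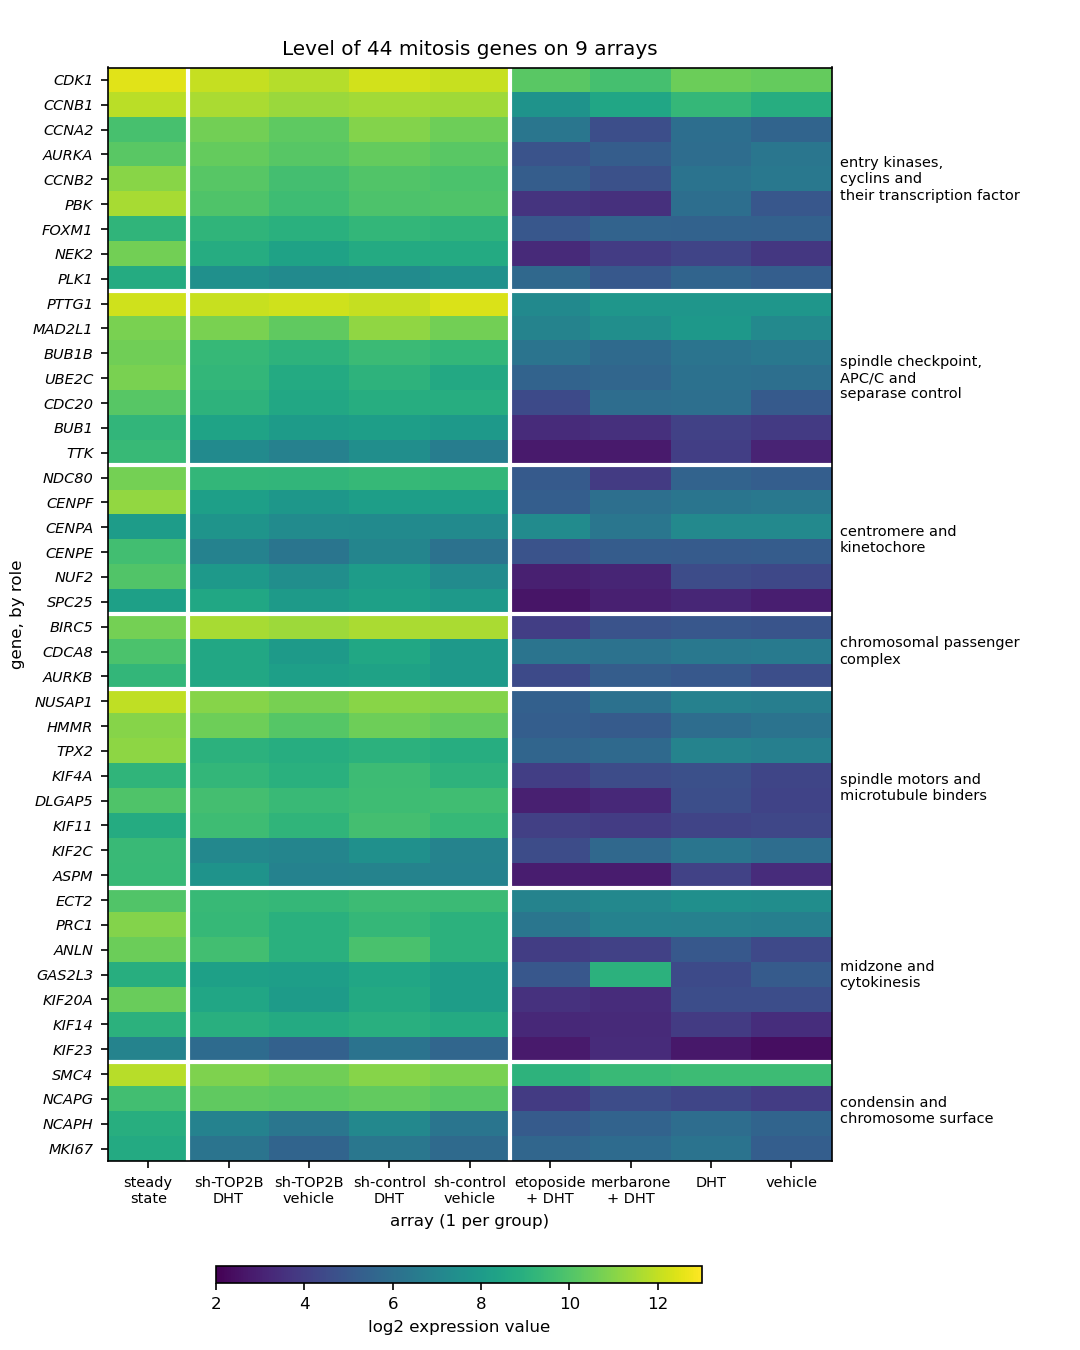
Level of each of the 44 mitosis genes (rows, by role) on each of the 9 arrays (columns, 1 per group), with colour giving the log2 expression value. The steady-state and sorted columns are bright almost throughout, the 4 untransfected deprived columns on the right are dark, and GAS2L3 with merbarone is bright among them.

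Steady-state cells were set against deprived cells to ask how far these genes depend on serum with its androgen. All 44 members were higher in steady state than with vehicle, and 43 of 44 were higher by at least 1, that is 2-fold, which held for 4.19% of all 19775 genes. The exception was CENPA, the histone variant that marks centromeres, at 0.90 ± 0.25 higher (SE, limma adjusted p = 0.0359), a call that ended with no filter or with the sh-control or sh-TOP2B pair left out of the fit (adjusted p up to 0.0686). The median difference was 4.58 over the 44 members and 0.04 over all tested genes, or 3.83 over the members once dim levels were set to the array median. Of the 40 members tested, 40 passed limma's test as higher, against 15.7% of the 11865 genes tested. ASPM, TTK, SPC25 and KIF23 were below the filter on low levels and had no test. The filter was set on all 9 arrays, and only 14 members would have passed it on the 4 untransfected deprived arrays alone, so the count tested gives no support of its own. Fewer cells in mitosis and less of each RNA per cell cannot be told apart in bulk RNA.

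The counts by role given here and below are parts of the 40 tested members past the test for steady state against vehicle. The share of all tested genes was 15.7%, and the same limit of the filter holds. Among the kinases and cyclins of mitotic entry, 9 of 9 members were past the test. CDK1, the kinase at the centre of mitotic entry, was at 12.50 in steady state, 12.03 and 11.79 in sh-TOP2B cells with DHT and vehicle, 12.24 and 12.07 in sh-control cells with DHT and vehicle, 10.20 with etoposide, 9.74 with merbarone, 10.54 with DHT alone and 10.39 with vehicle. Its RNA thus stayed well above the array median even where it was lowest, and steady state exceeded vehicle by 2.11 ± 0.10. CCNB1, its cyclin partner, was at 11.88 in steady state and 8.85 with vehicle, a difference of 3.04 ± 0.17. CCNB2, the second B-type cyclin, was at 11.06 in steady state and 6.40 with vehicle, a difference of 4.66 ± 0.25. NEK2, a kinase that separates centrosomes, was at 10.66 in steady state and dim with vehicle, a difference of at least 5.00. PBK, a mitotic kinase, was at 11.57 in steady state and dim with vehicle, a difference of at least 5.92. The differences of NEK2 and PBK were among the widest of the list, while CDK1 had one of the narrowest.

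In the spindle checkpoint and the control of the anaphase-promoting complex, 6 of 6 tested members were past the test. PTTG1, or securin, which holds separase inactive until anaphase, was at 12.20 in steady state, 12.08 and 12.19 in sh-TOP2B cells with DHT and vehicle, 12.05 and 12.36 in sh-control cells with DHT and vehicle, 7.23 with etoposide, 7.76 with merbarone, 7.78 with DHT alone and 7.78 with vehicle. The sorted arrays lay on both sides of steady state for this gene and far above the 4 untransfected deprived arrays. BUB1, a checkpoint kinase, was at least 3.57 higher in steady state than with vehicle. MAD2L1, which holds back CDC20, was 3.64 ± 0.17 higher. UBE2C, the ubiquitin-conjugating enzyme of the anaphase-promoting complex, was 4.74 ± 0.24 higher and CDC20, its activator, at least 4.48.

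All 5 tested members of the centromere and kinetochore were past the test. NDC80, the microtubule-binding subunit of the outer kinetochore, was at 10.70 in steady state, 9.27 and 9.26 in sh-TOP2B cells with DHT and vehicle, 9.36 and 9.27 in sh-control cells with DHT and vehicle, 5.10 with etoposide, 3.91 with merbarone, 5.51 with DHT alone and 5.29 with vehicle. All 4 untransfected deprived arrays were dim for it, and the difference between steady state and vehicle was at least 5.05. Its partner NUF2 was at least 4.34 higher in steady state, and CENPF, a large kinetochore protein, 4.80 higher. CENPA stood apart from the group, since its 9 levels spanned only 1.75, from 6.33 with merbarone to 8.08 in steady state.

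BIRC5, or survivin, of the chromosomal passenger complex that corrects wrong spindle attachments, was at 10.71 in steady state, 11.56 and 11.39 in sh-TOP2B cells with DHT and vehicle, 11.60 and 11.59 in sh-control cells with DHT and vehicle, 4.05 with etoposide, 4.83 with merbarone, 4.98 with DHT alone and 4.84 with vehicle. By this probe set it was dim on the 4 untransfected deprived arrays and higher on each sorted array than in steady state. Steady state exceeded vehicle by at least 5.06, and all 3 members of the complex were past the test.

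Of the spindle motors and microtubule binders, 7 of 7 tested members were past the test. NUSAP1, which bundles spindle microtubules, was at 11.95 in steady state, 11 and 10.75 in sh-TOP2B cells with DHT and vehicle, 11.03 and 10.97 in sh-control cells with DHT and vehicle, 5.35 with etoposide, 6.12 with merbarone, 6.84 with DHT alone and 6.70 with vehicle. Its difference between steady state and vehicle, 5.25 ± 0.16, was the widest in which neither level was dim. HMMR, a spindle-assembly factor, was 4.82 ± 0.26 higher in steady state, and DLGAP5, a spindle stabiliser, at least 4.33.

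The 6 tested members of the midzone and cytokinesis group were all past the test. ECT2, the exchange factor that activates RhoA at the division plane, was at 10.02 in steady state, 9.43 and 9.31 in sh-TOP2B cells with DHT and vehicle, 9.52 and 9.51 in sh-control cells with DHT and vehicle, 6.91 with etoposide, 7.15 with merbarone, 7.46 with DHT alone and 7.39 with vehicle. It was above the median everywhere, and steady state exceeded vehicle by 2.63 ± 0.17. ANLN, a scaffold of the contractile ring, was at least 4.89 higher in steady state, KIF20A, a midzone kinesin, at least 4.84 and KIF14, a kinesin of the same site, at least 3.41.

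All 4 members of the condensin and chromosome surface group were past the test. SMC4, a core condensin subunit, was at 11.82 in steady state, 10.87 and 10.63 in sh-TOP2B cells with DHT and vehicle, 11.01 and 10.77 in sh-control cells with DHT and vehicle, 9.13 with etoposide, 9.45 with merbarone, 9.52 with DHT alone and 9.53 with vehicle. The levels stayed high on every array, and steady state exceeded vehicle by 2.29 ± 0.15. NCAPG, another condensin subunit, was dim with vehicle and at least 4.01 higher in steady state.

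Against DHT alone, steady state was again higher for 44 of 44 members, with a median difference of 4.48, and 40 of 40 tested members were past limma's test, against 13.5% of all tested genes. This comparison shares the steady-state array with the one against vehicle, and the same limit of the filter holds. NEK2 was at least 5.00 higher in steady state than with DHT alone, PBK 5.60 ± 0.35, BIRC5 at least 5.06, ANLN at least 4.90 and KIF20A at least 4.85. CENPA had the narrowest difference, 0.91 ± 0.25 (limma adjusted p = 0.0388, and up to 0.0742 under the same 3 settings that ended its call against vehicle), followed by CDK1 at 1.97 ± 0.10. The steady-state level lay above all 4 untransfected deprived arrays for 43 of 44 members, against 26.6% of all genes, and the exception was GAS2L3, a linker of actin and microtubules that acts in cytokinesis.

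**Figure D2:**
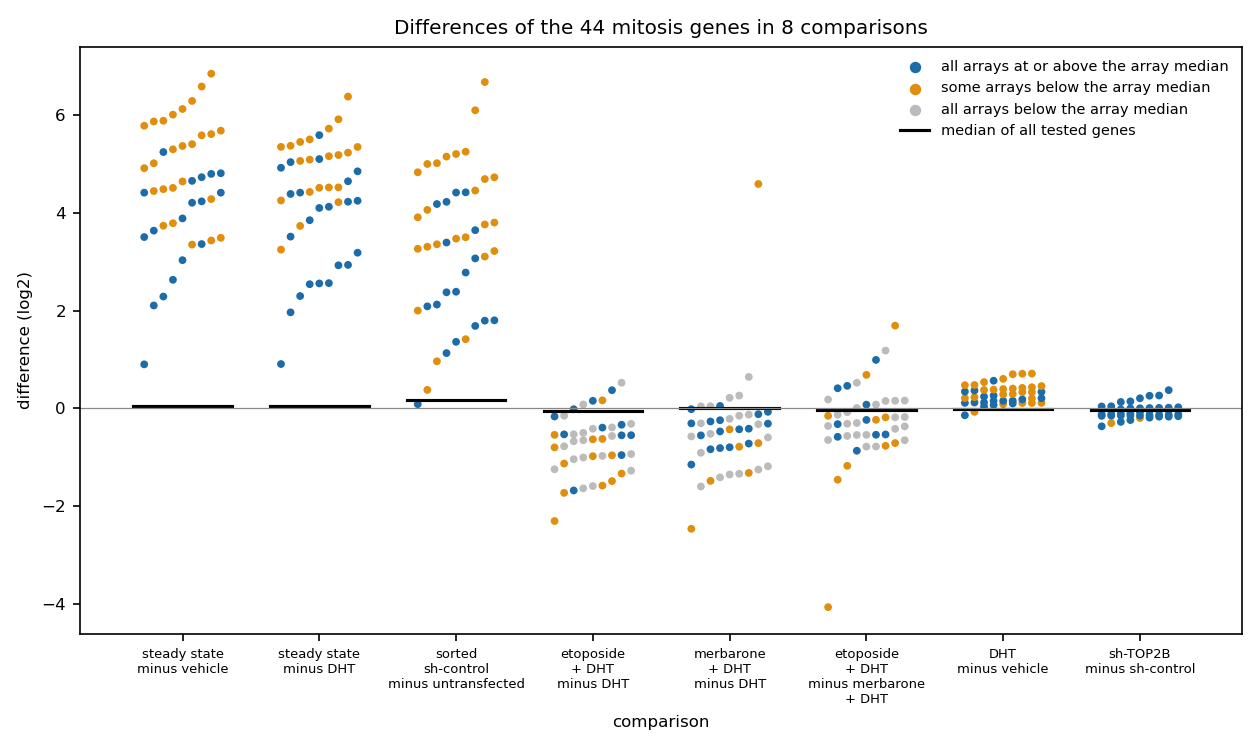
Difference on the log2 scale (vertical axis) of each of the 44 mitosis genes (points) in 8 comparisons (horizontal axis), coloured by whether the arrays compared were at or above their medians, with a bar at the median of all tested genes. The steady-state and sorted columns lie almost wholly above 1, the inhibitor columns lie mostly below 0 with GAS2L3 far off in those with merbarone, and the DHT and sh-TOP2B columns lie near 0.

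The promoters of the members were searched for the 2 motifs named above, because the members moved together. RefSeq windows (GRCh38.p14) from 250 bases before to 50 bases after the start site were held for 37 of the 44. FOXM1, UBE2C, PBK, TPX2, AURKA, TTK and BIRC5 had none. A CHR match was TTTGAA or TTCGAA on either strand, and a CCAAT match was CCAAT on either strand, read as ATTGG on the other. A CHR match was present in 27 of 37 members (73.0%), in 38 of 59 other mitosis genes with a window (64.4%) and in 19.5% of the 27305 genes with a window. A CCAAT match was present in 28 members (75.7%), against 39.7% of all genes, and both motifs in 21 (56.8%), against 9.02%. Within 50 bases of the start site, a distance chosen after the matches were seen, 23 members had a CHR match (62.2%), against 6.24% of all genes. These shares are descriptions without a test, and a match is not evidence of binding.

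**Figure D3:**
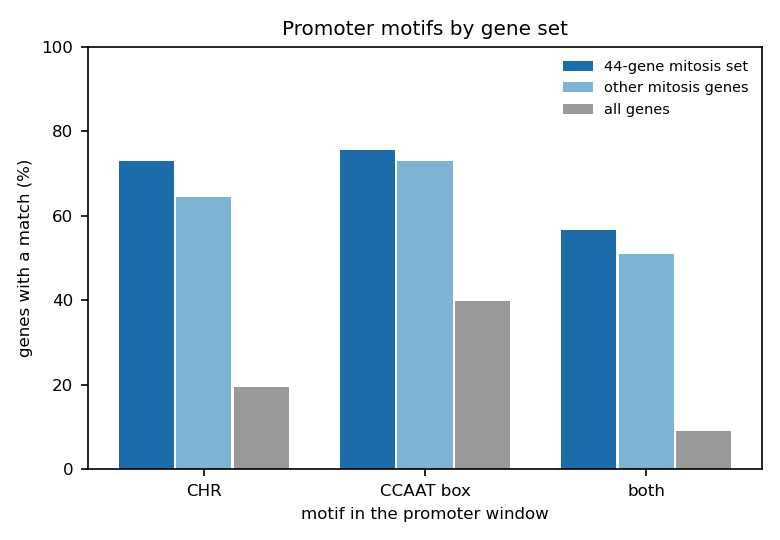
Percent of genes (vertical axis) with a CHR, a CCAAT box or both in the promoter window (horizontal axis), for the 44-gene mitosis set, the other mitosis genes and all genes with a window. The mitosis bars stand at 73.0%, 75.7% and 56.8%, against 19.5%, 39.7% and 9.02% for all genes.

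Windows of 5 members are printed 5' to 3' on the strand of the gene, with CHR and CCAAT matches in capitals. CCNB1 (chr5:69166900-69167199, plus strand) is shown as a leading cyclin with 2 CCAAT matches and no match to these CHR letters, and CCNB2 (chr15:59104896-59105195, plus strand) as one with 4 CCAAT matches and a CHR at position -29 from the start site. CENPA (chr2:26785806-26786105, plus strand) and MKI67 (chr10:128126374-128126673, minus strand) are shown since they did not pass the test in sorted cells, as given further on. GAS2L3 (chr12:100593368-100593667, plus strand) is shown as the member that rose with merbarone. In MKI67 the second CHR and a CCAAT on the other strand share a base.
CCNB1: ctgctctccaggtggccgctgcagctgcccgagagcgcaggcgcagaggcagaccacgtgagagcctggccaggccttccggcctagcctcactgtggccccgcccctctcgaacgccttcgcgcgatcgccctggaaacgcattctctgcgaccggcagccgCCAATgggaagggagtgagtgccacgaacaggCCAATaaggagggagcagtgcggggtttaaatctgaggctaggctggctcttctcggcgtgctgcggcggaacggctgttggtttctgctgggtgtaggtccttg
CCNB2: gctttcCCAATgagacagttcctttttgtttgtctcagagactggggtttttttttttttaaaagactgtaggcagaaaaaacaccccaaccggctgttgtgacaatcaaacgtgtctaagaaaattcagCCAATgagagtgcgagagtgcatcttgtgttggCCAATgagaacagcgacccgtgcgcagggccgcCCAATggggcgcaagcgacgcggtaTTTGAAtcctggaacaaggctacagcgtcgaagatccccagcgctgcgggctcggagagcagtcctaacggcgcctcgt
CENPA: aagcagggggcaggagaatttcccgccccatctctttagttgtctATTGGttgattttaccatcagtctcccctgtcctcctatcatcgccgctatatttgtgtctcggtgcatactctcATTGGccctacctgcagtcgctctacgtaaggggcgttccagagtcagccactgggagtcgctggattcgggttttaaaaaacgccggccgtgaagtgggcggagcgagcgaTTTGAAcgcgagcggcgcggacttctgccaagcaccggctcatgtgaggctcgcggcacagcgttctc
MKI67: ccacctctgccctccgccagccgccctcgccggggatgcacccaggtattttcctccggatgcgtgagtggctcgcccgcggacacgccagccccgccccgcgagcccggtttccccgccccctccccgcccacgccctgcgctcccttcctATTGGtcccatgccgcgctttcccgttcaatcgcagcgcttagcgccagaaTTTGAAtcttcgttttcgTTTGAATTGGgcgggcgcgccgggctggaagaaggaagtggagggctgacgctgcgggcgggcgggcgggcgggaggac
GAS2L3: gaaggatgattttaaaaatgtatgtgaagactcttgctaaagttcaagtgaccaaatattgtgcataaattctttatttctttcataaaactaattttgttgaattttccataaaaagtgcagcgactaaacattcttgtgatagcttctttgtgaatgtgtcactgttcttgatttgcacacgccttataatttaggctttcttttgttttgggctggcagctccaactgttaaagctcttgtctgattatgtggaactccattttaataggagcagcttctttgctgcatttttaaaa
The CENPA window had a CHR at position -18 and 2 CCAAT matches, and the MKI67 window had CHR matches at -47 and -29. GAS2L3 had neither motif, as was so for KIF2C and CENPE. No match means only that these letters are not in this window.

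DHT was set against vehicle in 3 pairs of arrays, from untransfected, sh-control and sh-TOP2B cells, to ask what androgen alone restored. The members were mostly a little higher with DHT, and none passed the test. The fitted difference was above 0 for 42 of 44 members, with a median of 0.27 against -0.02 for all tested genes. With limma, 0 of 40 tested members passed, against 0.447% of all tested genes, and 12 had an unadjusted p under 0.05, each of them above 0, against 19.3% of all tested genes in either direction. A total of 27 members were higher with DHT in 3 of 3 pairs, against 15.6% of all genes, and only PTTG1 was lower in all 3. The median difference by pair was 0.39 in sh-TOP2B, 0.23 in sh-control and 0.20 in untransfected cells. In the untransfected pair 21 of 44 members were dim on both arrays, and of the 23 others 14 were higher and 9 lower with DHT. The median of 0.20 and the count of 27 thus rest in part on signs between dim levels.

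MKI67, a coat protein of mitotic chromosomes and a common proliferation marker, was at 6.17 with DHT and 5.28 with vehicle in untransfected cells, 6.24 with DHT and 5.57 with vehicle in sh-TOP2B cells, and 6.38 with DHT and 5.82 with vehicle in sh-control cells. All 3 pairs were higher with DHT, by at least 0.53 on average (limma adjusted p = 0.110). MAD2L1 was at 7.87 with DHT and 7.16 with vehicle in untransfected cells, 10.78 with DHT and 10.32 with vehicle in sh-TOP2B cells, and 11.18 with DHT and 10.65 with vehicle in sh-control cells. The DHT array was again the higher of each pair, by 0.57 ± 0.10 (limma adjusted p = 0.0810), yet the distance between series was several times wider. NCAPH, a condensin subunit, was at least 0.56 higher on average, without passing the test (limma adjusted p = 0.140). PTTG1 was at -0.14 ± 0.09 and ECT2 and AURKA at 0.07 and 0.04, the lowest fitted values among members with a size. Without the untransfected pair, 9 members passed as higher (CCNA2, CDK1, ANLN, MAD2L1, CENPE, UBE2C, CDCA8, NCAPH and SMC4), and then 21.2% of all tested genes passed in either direction.

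**Figure D4:**
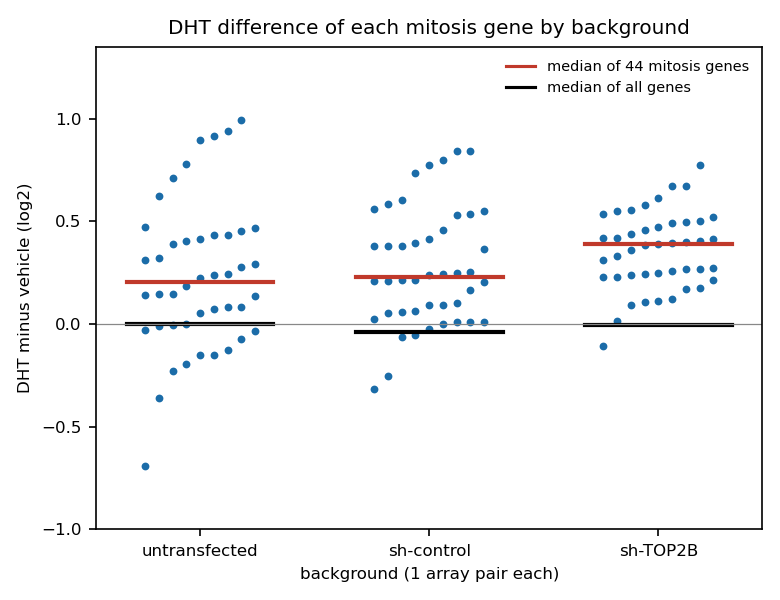
DHT minus vehicle on the log2 scale (vertical axis) for each of the 44 mitosis genes (points) in untransfected, sh-control and sh-TOP2B cells (1 pair of arrays each), with bars at the median of the members and of all genes. The member medians are 0.20, 0.23 and 0.39, and points below 0 are most frequent in the untransfected pair. In that pair 21 members were dim on both arrays.

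Etoposide and merbarone, both given before DHT, were set against DHT alone to ask what topoisomerase II inhibition did under androgen. Many of these genes were already low: 20 of 44 members were dim on both arrays with etoposide and DHT alone, and 20 with merbarone and DHT alone. Members that were not dim on both arrays were mostly lower with the drugs, 21 of 24 with etoposide and 22 of 24 with merbarone. All genes, dim or not, also leaned lower, with 44.3% higher with etoposide and 44.1% higher with merbarone than with DHT alone. The 2 comparisons share the DHT array. CDKN1A, the gene of the CDK inhibitor p21, was at 13.02 with etoposide, 13.22 with merbarone, 11.25 with DHT alone and 11.62 with vehicle.

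With etoposide, 6 of 40 tested members fell and 0 rose by limma's test, against 0.834% of all tested genes that fell. CCNB1 was at 7.63 with etoposide, 9.32 with DHT alone and 8.85 with vehicle. It fell by 1.68 ± 0.17 against DHT alone (SE from the pooled spread, limma adjusted p = 0.0125), which was 3.21-fold, and it alone of the 6 had neither level dim. TPX2, which activates Aurora A on the spindle, was at 5.58 with etoposide and 6.92 with DHT alone, at least 1.24 lower on the log2 scale. NUSAP1 was at 5.35 with etoposide and 6.84 with DHT alone, at least 1.16 lower on that scale. Both were dim with etoposide, as were KIF2C, a kinesin that takes microtubules apart (4.54 with etoposide and 6.27 with DHT alone), and PBK (3.67 with etoposide and 5.98 with DHT alone). DLGAP5 passed with both levels dim, at 2.99 with etoposide and 4.63 with DHT alone, so no size is given for it. By size alone, 13 of 44 members were lower by at least 1, against 0.941% of all genes. The median over members was -0.64, and 0.02 once dim levels were set to the array median. That 0.02 is only the difference between the medians of the etoposide and DHT arrays. All 20 members dim on both arrays take this value, so it gives no size of the fall. Leaving out the sh-control or the sh-TOP2B pair from the fit, or the intensity trend, left 0 members past the test.

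With merbarone, 13 of 40 tested members fell and 1 rose by limma's test, while 16.3% of all tested genes fell and 15.4% rose. Entry genes made up 5 of the 13. CDK1 was at 9.74 with merbarone and 10.54 with DHT alone, and fell by 0.80 ± 0.10. CCNB1 was at 8.50 with merbarone and fell by 0.81 ± 0.17. CCNA2, the cyclin of S phase and early mitosis, was at 4.64 with merbarone and 5.96 with DHT alone, and CCNB2 at 4.72 with merbarone and 6.20 with DHT alone. Both were dim with merbarone only, so that these differences are bounds of at least 0.35 and 0.59. PBK was at 3.51 with merbarone and 5.98 with DHT alone.

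Outside the entry genes, TPX2 was at 5.77 with merbarone and 6.92 with DHT alone, and fell by 1.15 ± 0.19. CENPA was at 6.33 with merbarone and 7.17 with DHT alone, and fell by 0.84 ± 0.25. NUSAP1 was at 6.12 with merbarone and fell by 0.72 ± 0.16. The calls of CENPA and NUSAP1 ended when the sh-control or the sh-TOP2B pair was left out of the fit. NDC80, NUF2, DLGAP5, KIF20A and ANLN also passed, with both levels dim and hence no size. The call of ANLN held in 5 of 10 settings and that of KIF20A in 7 of 10, and both ended without the sh-control pair. By size alone, 10 of 44 members were lower by at least 1, against 4.79% of all genes. The median over members was -0.45, and -0.04 once dim levels were set to the array median. That -0.04 is only the difference between the medians of the merbarone and DHT arrays, which the 20 members dim on both arrays take. Of 21 members with several probe sets that were not dim throughout, 10 had all of them on the same side of 0, so that many small differences with merbarone depend on the probe set chosen.

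GAS2L3 was the exception of the list. It was at 8.90 in steady state, 8.26 and 8.16 in sh-TOP2B cells with DHT and vehicle, 8.51 and 8.13 in sh-control cells with DHT and vehicle, 4.99 with etoposide, 9.06 with merbarone, 4.47 with DHT alone and 5.16 with vehicle. By this probe set the merbarone array was thus the highest of all 9, and the other 3 untransfected deprived arrays were dim. GAS2L3 rose with merbarone at least 10.6-fold against DHT alone (limma adjusted p = 0.000521). Its second probe set was at 8.43 with merbarone and 6.27 with DHT alone, and also at 8.04 in steady state and 6.76 with vehicle. That probe set was above the median on all 9 arrays. It rose with merbarone by 2.16 on the log2 scale, so the 10.6-fold bound holds only for the probe set used. The second probe set differed in the sorted cells, where it ran from 5.99 to 6.45 and so lay below the vehicle array.

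The inhibitors were also set against each other, both at 100 µM. Of 40 tested members 9 were lower and 4 higher with etoposide than with merbarone by limma's test. These shares were near the 19.1% and 13.5% of all tested genes, so the counts do not set the members apart. Of 44 members 24 were dim on both arrays. GAS2L3 was at least 3.38 lower with etoposide by the probe set used. Its second probe set differed less, at 6.54 with etoposide and 8.43 with merbarone. CCNB1 was at 7.63 with etoposide and 8.50 with merbarone, a difference of -0.87 ± 0.17. Its second probe set did not repeat this difference. It was dim on both arrays, at 5.30 with etoposide and 4.74 with merbarone, and so gave no size. MAD2L1 differed by -0.54 ± 0.17 and PTTG1 by -0.54 ± 0.15, and NUSAP1 was at least 0.44 lower with etoposide. CDC20 was at 4.45 with etoposide and 5.91 with merbarone, and KIF2C at 4.54 with etoposide and 5.71 with merbarone. BIRC5 and AURKB, the kinase of the passenger complex, passed as lower with both levels dim, and NDC80 as higher with both levels dim. CCNA2 was at 6.33 with etoposide and 4.64 with merbarone, at least 0.72 higher with etoposide. CENPA was 0.99 ± 0.25 and CDK1 0.46 ± 0.10 higher with etoposide. The calls of MAD2L1, PTTG1, AURKB and BIRC5 ended when the sh-control or the sh-TOP2B pair was left out of the fit, and that of CDK1 without the sh-TOP2B pair. Without the untransfected vehicle and DHT arrays in the fit, 21 members passed, and then 44.8% of all tested genes passed in either direction.

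**Figure D5:**
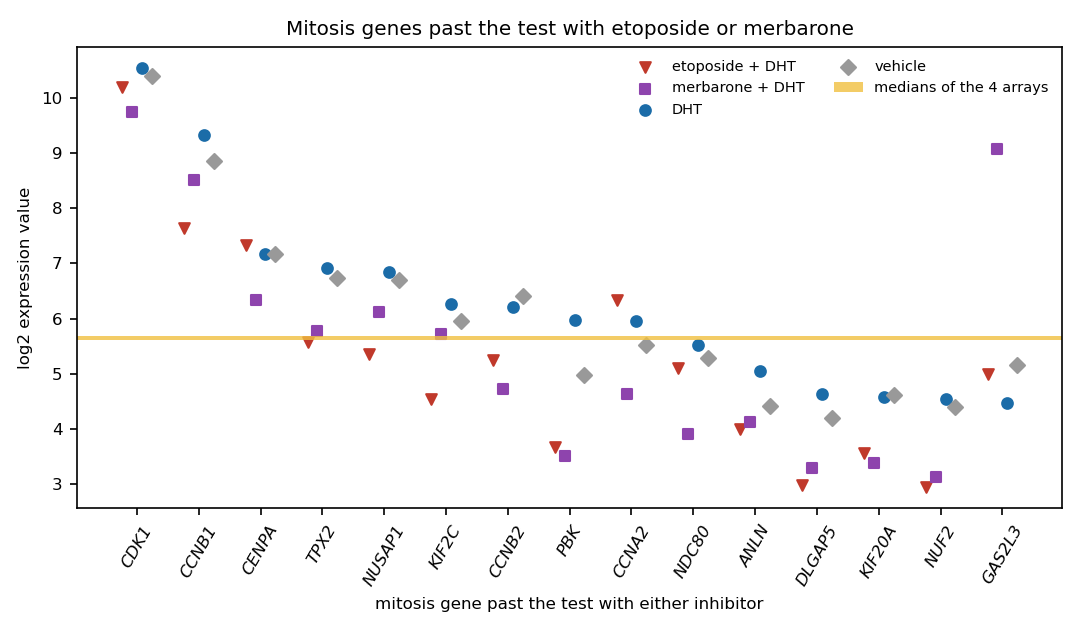
Level (log2 expression value, vertical axis) of the 15 mitosis genes past the test with either inhibitor (horizontal axis) on the etoposide, merbarone, DHT and vehicle arrays (1 each), with a band over the medians of these arrays. CCNB1 lies above the band on all 4 arrays, the genes from NDC80 to NUF2 lie below it, and GAS2L3 lies above it with merbarone only, at 9.06.

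Sorted sh-control cells were set against untransfected cells given the same deprivation and the same DHT or vehicle. The mitosis genes of the sorted cells were far higher although both had been deprived. All 44 members were higher in the sorted array of both the DHT and the vehicle pair, 41 by at least 1 on average, which held for 15.4% of all genes. The median difference was 3.44 over members and 0.18 over all tested genes. By limma's test 38 of 40 tested members were higher, against 41.7% of all tested genes, a background that shows how far the series differed throughout. The filter and the choice of probe set drew on the sorted arrays too. On the 4 sorted arrays alone 43 members would have passed the filter, and on the 4 untransfected deprived arrays alone 14. The count past the test thus gives no support of its own. On all 4 sorted arrays 41 members lay above all 4 untransfected deprived arrays, against 26.6% of all genes, and CENPA, MKI67 and GAS2L3 did not.

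BIRC5 had the widest difference, at least 5.94 with its untransfected levels dim. CCNA2 was at least 4.94 higher in sorted cells and NCAPG at least 4.58. PTTG1 was 4.43 ± 0.11 higher, HMMR 4.42 ± 0.18, and NUSAP1 4.23 ± 0.12. These differences exceeded the spread between the pairs many times over. PBK was at least 4.12 higher, DLGAP5 at least 3.97, KIF11, the motor that pushes spindle poles apart, at least 3.89, ANLN at least 3.81 and KIF4A, a chromosome-bound kinesin, at least 3.68. AURKA, the kinase of centrosomes and spindle poles, was 4.19 ± 0.19 higher.

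CENPA and MKI67 did not pass the test in this comparison. CENPA was at 7.25 in sh-control cells and 7.17 in untransfected cells with DHT, and at 7.27 in sh-control cells and 7.17 in untransfected cells with vehicle. The difference was 0.09 ± 0.17 (limma adjusted p = 0.684), within its error. MKI67 was at 6.38 in sh-control cells and 6.17 in untransfected cells with DHT, and at 5.82 in sh-control cells and 5.28 in untransfected cells with vehicle. Its difference of 0.38 ± 0.20 (limma adjusted p = 0.137) left it far below the 8.71 of steady state. The other MKI67 probe sets ran from 7.85 to 8.42 in steady state and from 4.54 to 5.98 on the sorted arrays, also below all of the steady-state values. Over 8 settings of the processing CENPA ran from -0.22 to 0.43 and passed in 0, and MKI67 ran from -0.34 to 0.72 and passed in 2. Opposite signs between probe sets of a gene occurred here for ECT2, GAS2L3, MKI67 and SMC4, 4 of 21 members.

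Relative to steady state, the 4 sorted arrays were all lower for 34 members, against 38.7% of all genes, and all higher for 4, against 35.3%. The 4 were CCNA2, KIF11, BIRC5 and NCAPG, each by the probe set used. The second CCNA2 probe set went the other way, at 9.70 in steady state and 8.05 to 8.47 on the sorted arrays. That of NCAPG did too, at 9.49 in steady state and 8.01 to 8.69 on the sorted arrays. For BIRC5 a further probe set was lower on the sorted arrays (8.59 to 8.99 against 9.15), and its others were higher. CENPE, a kinesin that carries chromosomes to the spindle equator, was at 7.01 and 6.17 in sh-control cells with DHT and vehicle, against 9.68 in steady state. CENPF was at 8.15 and 8.15 in sh-control cells with DHT and vehicle, against 11.21 in steady state. NCAPG was at 10.34 and 10.13 in sh-control cells with DHT and vehicle, against 9.66 in steady state. By the probe sets used, members thus lay on both sides of their steady-state level, and the side depended on the probe set for CCNA2, NCAPG and BIRC5. The 3' excess of the actin probe sets moved with this comparison, and its part in the result was not tested.

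The knockdown was set against sh-control within the sorted series, in a DHT and a vehicle pair. TOP2B was still at 10.01 and 10.09 in sh-TOP2B cells, so the test concerns a partial loss of its RNA. TOP2A was at 9.17 and 8.82 in sh-TOP2B cells with DHT and vehicle, and at 9.05 and 8.97 in sh-control cells. By limma's test 0 of 40 tested members passed, against 1.05% of all tested genes, and 2 had an unadjusted p under 0.05, against 7.01%. The median difference was -0.09 and the members ran from -0.37 to 0.37, with a median SE of 0.18. MAD2L1 was at 10.78 in sh-TOP2B and 11.18 in sh-control cells with DHT, and at 10.32 in sh-TOP2B and 10.65 in sh-control cells with vehicle. Both pairs were lower with the knockdown, at -0.37 ± 0.12 on average (limma adjusted p = 0.520). CDK1 was next among those with a low p, at -0.24 ± 0.07 (limma adjusted p = 0.475), and CCNA2 was at -0.28. ASPM, which focuses spindle poles, was at 0.37, AURKB at 0.26 and CENPA at 0.26. The change of the DHT response with the knockdown also passed for 0 of 40 members, against 0% of all tested genes by limma, with 0 at an unadjusted p under 0.05, against 1.24%. Its median was 0.07, or -0.06 with arrays centred on control genes, with a median SE of 0.36. ASPM, PLK1, the kinase of mitotic entry and exit, and CDC20 were highest at 0.72, 0.52 and 0.52, and KIF2C, TTK and NCAPH lowest at -0.50, -0.36 and -0.29.

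Other genes of the cell cycle were read from lists of textbook members, also chosen with earlier results of these data known. The same filter, set on all arrays, decided which of these genes were tested. Of 70 further mitosis genes 61 were tested, of which 52 were higher in steady state than with vehicle, against 15.7% of all tested genes, with a median of 2.56 over the list. CENPU, a subunit of the inner kinetochore, was 5.24 higher there, RACGAP1, a partner of ECT2 at the midzone, 5.15 and FAM83D at least 4.67. In sorted cells 51 were higher and 3 lower than in untransfected cells, against 41.7% and 26.6% of all tested genes. LMNB1, a nuclear lamin, was at least 4.57 higher there, RACGAP1 4.05 and CEP55, which recruits the abscission machinery, at least 4.05. The 3 lower were UBE2S at -2.04, CKAP5 at -0.83 and FZR1 at -0.68. DHT against vehicle gave 1 call among the 61, CENPN, a reader of CENPA chromatin, 1.52 higher, against 0.447% of all tested genes. With etoposide 2 passed the test, both lower, against 0.834% of all tested genes: CENPU fell by 1.53 and LMNB1 by at least 0.32. With merbarone 13 of 61 fell and 3 rose, against 16.3% and 15.4% of all tested genes. CKS2, a CDK1 subunit, fell by 1.36, NCAPD2, a condensin subunit, by 1.12 and CDCA3 by at least 1.02, while WEE1, which inhibits CDK1, rose by 1.60, CKS1B by 0.81 and ZW10 by 0.66. With the knockdown 1 of 61 was higher, MAD1L1 by 1.15, against 1.05% of all tested genes.

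Of 36 measured genes of DNA replication, 33 were higher in steady state than with vehicle, against 15.7% of all tested genes, and 31 higher in sorted than in untransfected cells, against 41.7%, led by RRM2, a ribonucleotide reductase subunit, at 5.40 and 5.59. With etoposide 2 rose, TYMS by 2.23 and PCNA by 1.17, against 0.211% of all tested genes. GINS1 fell by 1.12 and RRM2 by at least 0.42, against 0.834% that fell. With merbarone 5 rose and 6 fell, shares near those of all tested genes (15.4% and 16.3%), among them TYMS at 1.71 higher and CCNE2 at least 1.69 lower. Of 16 tested genes of the DREAM and MuvB complexes and their E2F and MYBL2 partners, 5 were higher in steady state than with vehicle, against 15.7% of all tested genes, with E2F7 at least 1.96 and MYBL2 1.85 higher. In sorted cells 12 were higher, against 41.7%, and E2F4, the repressor subunit of DREAM, was lower at -2.14. Of 12 tested CDK inhibitors and p53 targets, 3 rose with etoposide, GADD45A by 2.18, MDM2 by 1.84 and CDKN1A by 1.77, and CCNG2 fell by 0.66. Of all tested genes 0.211% rose and 0.834% fell. With merbarone 9 rose, against 15.4% of all tested genes, and 0 fell, by limma's test as for the other lists. In steady state against vehicle 2 were higher and 5 lower, against 1860 and 1477 of the 11865 genes tested. In sorted cells 3 were higher and 6 lower, against 41.7% and 26.6% of all tested genes. With the knockdown 2 were higher and 0 lower, against 1.05% in either direction.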

How the data were processed

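Total RNA of LNCaP cells was measured on 9 arrays, 1 per group. The authors deposited log2 values made with RMA, per the submitters' processing notes, whose version is not given in the sources used here, nor whether both series were normalized together. RMA equalizes the distributions of the arrays, so a change common to most genes would be lost. Probe sets were named from the platform annotation: 41097 had 1 symbol, 1801 several and 11777 none, and 41043 matched a RefSeq gene ID. The probe set of highest mean stood for its gene (19775 genes), and the 11865 with a mean at or above the 40th percentile were tested.

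One limma fit (version 3.58.1, R 4.3.3, with intensity trend) over all 9 arrays held a block for untransfected, sh-control and sh-TOP2B cells, a DHT term and terms for steady state, etoposide and merbarone. It had 2 residual and 4.62 prior degrees of freedom. An array without a pair was set against its reference array with the pooled spread, so that SEs of these comparisons rest on the 3 DHT pairs, and the lone array is assumed to vary like them. The change of the DHT response came from a fit with 1 residual degree of freedom. P-values are two-sided with Benjamini-Hochberg adjustment over all tested genes, at a threshold of 0.05. The number of arrays limits the precision.

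The members and lists were chosen with earlier results of these data known. Members past the test were named up to 12 per direction, otherwise the 3 highest and 3 lowest, with the member of highest mean in each role, and genes of other lists up to 3 per direction. GAS2L3, CENPA and MKI67 in sorted cells, and levels relative to steady state, were chosen for description after their values were seen. Alternatives covered the filter, trend, probe set, scaling, dim levels, pairs left out and the fitted reference level. The fits were tested on simulated data. Python 3.11.15 with pandas 2.3.3 and numpy 2.4.6 made summaries. Some genes were not analysed here.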

Additional observations from a re-analysis of the deposited data

Results flagged for a closer look

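For 7 members the DHT minus vehicle difference in untransfected cells was below 0 while both sorted pairs were above 0: AURKA at -0.36, HMMR at -0.23, CCNB2 at -0.20, CDCA8 at -0.15, BUB1B at -0.15, CENPF at -0.12 and SMC4 at -0.010. Each value rests on 1 pair of arrays, and the difference between backgrounds was not tested. In sh-TOP2B and sh-control cells the same difference was 0.27 and 0.21 for AURKA, and 0.58 and 0.58 for CDCA8.

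Second probe sets of 4 members, which stood for no gene in the report and entered only its counts of signs over probe sets and the medians over probe sets, were dim on all 5 untransfected arrays, steady state included, and above the array median on all 4 sorted arrays. The mean of the sorted arrays minus that of the untransfected arrays was 4.26 for CDK1, 4.08 for ECT2, 2.81 for AURKA and 2.17 for ASPM. The CDK1 probe set ran from 7.84 to 8.74 on the sorted arrays and from 3.58 to 5.60 on the untransfected ones, and that of ECT2 from 7.36 to 7.68 on the sorted arrays and from 3.08 to 3.79 on the untransfected ones. For the probe sets used in the report the same differences were 1.36 for CDK1, 1.65 for ECT2, 3.79 for AURKA and 2.54 for ASPM, so that the second probe set differed more for CDK1 and ECT2 and less for AURKA and ASPM. With merbarone against DHT alone that of ECT2 was at 0.005, while the other ECT2 probe sets were at -0.31 and -0.29.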

How the results depend on the processing

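With the filter at the 60th percentile only 15 members were tested, and the counts of members past limma's test were 15 for steady state against vehicle, 15 against DHT, 15 for sorted against untransfected cells, 7 for merbarone and 8 for etoposide against merbarone. For etoposide against DHT alone the count of 6 became 2 with no filter, 0 with no intensity trend, 3 with arrays centred on control genes, 2 with dim levels set to the array median, and 0 to 0 with the sh-control or sh-TOP2B pair left out. CCNB1 kept its call in 9 of 12 settings, with adjusted p from 0.0080 to 0.132. With dim levels raised, merbarone against DHT alone gave 6 in place of 14, and etoposide against merbarone 6 in place of 13. Leaving out a pair gave 8 to 21 for etoposide against merbarone and 0 to 9 for DHT against vehicle, the 9 without the untransfected pair. GAS2L3 kept its merbarone call in 11 of 11 settings, TPX2 and CCNB1 in 12 of 12, CDK1 in 11 of 12, NUSAP1 in 8 of 12, CENPA in 7 of 11, KIF20A in 7 of 10 and ANLN in 5 of 10. CENPA kept its steady-state calls in 8 of 11. Against merbarone, etoposide calls held in 8 of 12 settings for CDK1, 7 of 12 for PTTG1 and BIRC5, 6 of 12 for MAD2L1 and 5 of 10 for AURKB. Choosing probe sets and filter on the 5 arrays of the inhibitor series, an alternative added after seeing the data, left 28 members tested, all higher in steady state, and gave 4, 10 and 11 calls for etoposide, merbarone and their comparison. The fit pairs DHT with vehicle arrays of the same cells, and the labels number no replicates for a further block.

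Centring on control genes put the median difference of all tested genes at 0.52 in place of 0.18 for sorted cells, 0.27 in place of 0 for merbarone and 0.23 in place of 0.04 for steady state against vehicle, and the median of the 40 tested members at 3.80, -0.19 and 4.66. It moved the share of higher calls among all tested genes to 73.3% in place of 55.7% for steady state against vehicle, 72.5% in place of 54.2% against DHT, 40% in place of 20.2% for etoposide, 73.6% in place of 48.5% for merbarone, 30.7% in place of 41.4% for etoposide against merbarone and 77.9% in place of 61.0% for sorted cells. Repeated quantile normalization gave 46.3% for sorted cells, 32.9% for etoposide and 51.1% for etoposide against merbarone. Dim levels limit the sizes that can be given for the inhibitors: 20 members were dim on both arrays for each inhibitor against DHT alone and 24 for etoposide against merbarone.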
